A study of Mus musculus with 8 samples.

Results

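The 9 genes described here encode proteins that restrain signalling from the B cell receptor. They are the inhibitory receptors Cd22, Cd72, Fcgr2b and Siglecg, the adaptor Dok3, the kinases Lyn and Csk, and the phosphatases Ptpn6 and Ptpn22. They were chosen by name for these roles, and are 9 of the 55421 gene identifiers in the count table. All 9 passed the filter on low counts and so belong to the 12997 genes tested. RNA had been sequenced from splenic germinal centre B cells of C57BL/6 mice aged 8 to 10 weeks, taken on day 10 after immunization and isolated with a PNA microbead kit (PNA is peanut agglutinin, a lectin that binds germinal centre B cells). The 4 groups held 2 libraries each and were CC cells of Smarca4+/- mice, CC cells of Smarca4+/+ mice, CB cells of Smarca4+/- mice and CB cells of Smarca4+/+ mice. CB and CC are the labels' names and the usual abbreviations of centroblast and centrocyte, which are germinal centre B cells in the dark zone and in the light zone. Smarca4 encodes Brg1, the motor subunit of SWI/SNF complexes, which move nucleosomes, and Smarca4+/- mice have 1 intact copy. The immunogen, the allele and any Cre driver, and how the fractions were separated were not given in the sources used here. Nor do the labels say whether the libraries of a group came from different mice or pools, so p-values measure only how libraries varied, which may be technical variation.

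When antigen binds the B cell receptor, Src family kinases such as Lyn phosphorylate its signalling chains and start a cascade through Syk, Btk and Plcg2. Lyn also phosphorylates inhibitory motifs in the tails of Cd22, Cd72, Fcgr2b and Siglecg, which then recruit phosphatases. Ptpn6 (SHP-1) is the phosphatase that Cd22, Cd72 and Siglecg recruit, while Fcgr2b, the inhibitory Fc receptor for IgG, acts mainly through the lipid phosphatase SHIP. Csk phosphorylates the inhibitory tyrosine of Src family kinases, and Ptpn22 binds Csk and removes the activating phosphate of these kinases. Germinal centre B cells are known for a dampened receptor response with high phosphatase activity.

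The sequences around a transcript start of 3 of these genes are shown because their values carry most of the results: Dok3 and Ptpn22 passed the test between the fractions, and Siglecg had the smallest p-value of the 9 genes between the genotypes in CC. Each window runs from 250 bases before to 50 bases after a RefSeq transcript start (build GRCm38.p6) and is written 5′ to 3′ in the direction of the gene. The windows are chr13:55528489-55528788 on the minus strand for Dok3, chr3:103859545-103859844 on the plus strand for Ptpn22 and chr7:43407989-43408288 on the plus strand for Siglecg. The Dok3 window lies wholly inside the gene as annotated in the count table (55523231 to 55529296). It therefore surrounds an internal transcript start and is not sequence upstream of the gene. Capitals mark matches to 4 motifs searched on both strands: GAGGAA (the core bound by PU.1, an ETS factor of B cells and macrophages), ATGCAAAT (the octamer of Oct factors), TATAAA (the TATA box) and CCGGAAG (the general ETS core). A reverse-strand match to GAGGAA reads TTCCTC, and one to TATAAA reads TTTATA.
Dok3: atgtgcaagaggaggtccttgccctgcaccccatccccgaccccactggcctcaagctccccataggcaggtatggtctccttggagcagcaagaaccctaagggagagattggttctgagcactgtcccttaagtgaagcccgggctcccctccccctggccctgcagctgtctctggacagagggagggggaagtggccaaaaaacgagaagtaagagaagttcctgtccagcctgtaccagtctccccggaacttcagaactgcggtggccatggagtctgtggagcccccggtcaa
Ptpn22: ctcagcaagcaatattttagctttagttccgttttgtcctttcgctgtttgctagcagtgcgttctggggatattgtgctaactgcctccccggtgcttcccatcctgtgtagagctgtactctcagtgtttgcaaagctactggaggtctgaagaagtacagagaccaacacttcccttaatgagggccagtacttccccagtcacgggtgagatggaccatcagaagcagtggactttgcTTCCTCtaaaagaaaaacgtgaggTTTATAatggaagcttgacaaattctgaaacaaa
Siglecg: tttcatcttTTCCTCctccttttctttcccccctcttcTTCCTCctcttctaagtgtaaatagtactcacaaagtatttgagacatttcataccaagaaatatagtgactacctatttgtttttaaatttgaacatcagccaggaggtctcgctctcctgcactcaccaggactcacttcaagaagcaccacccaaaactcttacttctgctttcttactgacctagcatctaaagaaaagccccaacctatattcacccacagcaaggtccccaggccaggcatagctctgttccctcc
The Ptpn22 window held GAGGAA from base 243 and TATAAA from base 267, the Siglecg window held GAGGAA from bases 10 and 39, all on the opposite strand, and the Dok3 window held no match. Among 32851 RefSeq windows of this length, 28.28% held GAGGAA, 1.74% ATGCAAAT, 13.62% TATAAA and 8.86% CCGGAAG. Such matches are common and describe the letters only. Of the 9 genes, 8 had a window (11 windows in all), and none of the 11 held the octamer or CCGGAAG. In base composition 1 of the 2 Csk windows and the Siglecg window shown lay far apart. The Csk window had 66.3% G and C and 24 CpG sites, an observed to expected CpG ratio of 0.73, while the Siglecg window had 43.7% G and C and 1 CpG site, against medians of 52.7%, 7 CpG sites and 0.38 over all windows.

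The CC libraries were shallow, with 526353 to 837558 counts against 18357578 to 24341805 in the CB libraries, a ratio of the means of 32.7. Across genes, Pearson's r of log2 CPM between the replicates was 0.793 in Smarca4+/- CC, 0.772 in Smarca4+/+ CC, 0.984 in Smarca4+/- CB and 0.974 in Smarca4+/+ CB. CPM (the count of a gene relative to the library total, which was scaled by TMM) allow libraries of unlike depth to be set side by side, and 1 count was worth 1.19 to 1.79 CPM in CC and 0.0467 to 0.0527 CPM in CB. Smarca4 itself had 244 and 311 CPM in Smarca4+/- CC, 322 and 315.5 in Smarca4+/+ CC, 734 and 702 in Smarca4+/- CB, and 897 and 1002 in Smarca4+/+ CB. It was lower in both Smarca4+/- groups, as labelled, without passing the edgeR test in either (adjusted p = 0.607 in CC and 1 in CB). The 10 B cell markers, none of them at 0, summed to 6014 to 8523 CPM in CC and 9592 to 10620 CPM in CB. One of them, Ighm, had 2178 to 4039 CPM in CC and 4222 to 5287 CPM in CB and so weighed heavily in the sums. Singly, 1 of the 10 passed as lower in Smarca4+/- CC and 0 in Smarca4+/+ CC. In Smarca4+/- cells 3 of the 10 had a positive log2 fold change and 7 a negative one, and in Smarca4+/+ cells all 10 were negative. The summed dark zone markers were lower and the summed light zone markers higher in every CC library than in every CB library. Gene by gene, 6 of 10 dark zone markers fell and 6 of 10 light zone markers rose in Smarca4+/- CC, and 9 fell and 5 rose in Smarca4+/+ CC. Of 17 macrophage and monocyte markers, 13 rose in Smarca4+/- CC and 12 in Smarca4+/+ CC, and they summed to 1852 to 4320 CPM in CC and 55.3 to 297.5 CPM in CB, with up to 2 of them at 0 in a library. Of 16 T cell markers, 9 rose in Smarca4+/- CC and 11 in Smarca4+/+ CC, and they summed to 234 to 781 CPM in CC and 114 to 143 CPM in CB, where 3 to 5 were at 0. One T cell marker held most of the CB sum, and the other 15 summed to 67.6 to 595 CPM in CC and 5.52 to 10.4 CPM in CB. Red cell markers summed to 128 to 804 CPM in CC and 5.43 to 12.9 CPM in CB (5 of 9 tested rose in Smarca4+/- CC and 7 in Smarca4+/+ CC), and mitochondrial genes took 2.24 to 5.86% of counts in CC and 0.699 to 1.4% in CB. The part of these differences in the changes between the fractions was not tested. In such bulk samples, fewer cells of a type and less RNA per cell cannot be told apart.

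**Figure D1:**
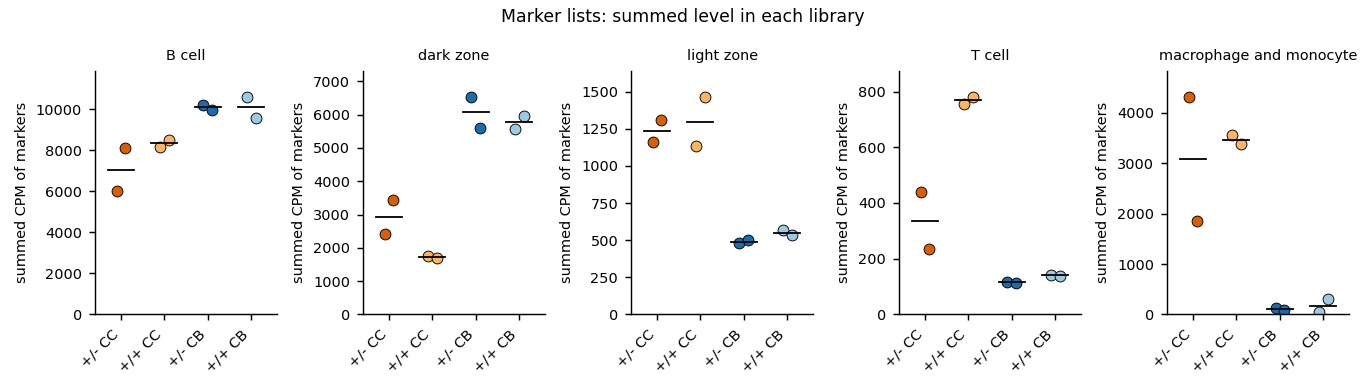
Summed CPM (TMM scaled, linear axes from 0) of 5 marker lists in each of the 8 libraries, points being libraries and lines the means of the 2 libraries of a group. Macrophage and monocyte markers lie at 1852 CPM or more in every CC library and at 297.5 CPM or less in every CB library, and T cell markers at 234 CPM or more in CC.

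Between the fractions, 2 of the 9 inhibitors changed in Smarca4+/+ cells and 1 in Smarca4+/- cells. Ptpn22 rose in CC relative to CB, 6.4-fold in Smarca4+/- cells and 11.6-fold in Smarca4+/+ cells. Dok3 fell 2.27-fold in Smarca4+/+ CC. The other 8 genes in Smarca4+/- cells and 7 in Smarca4+/+ cells did not pass (edgeR quasi-likelihood test on all 8 libraries, Benjamini-Hochberg adjusted over 12997 genes at 0.05). Of all genes tested, 3.67% passed in Smarca4+/- cells (2.17% higher and 1.50% lower in CC) and 7.49% in Smarca4+/+ cells (3.72% higher and 3.76% lower). An unadjusted p under 0.05 was found for 3 of the 9 genes in each genotype, against 18.2% of all genes in Smarca4+/- and 23.3% in Smarca4+/+ cells. Without overlap of the fractions, 4 of the 9 genes were higher and 3 lower in Smarca4+/- CC, where 20.2% of all genes were higher and 33.2% lower (53.4% in all). In Smarca4+/+ CC, 2 were higher and 4 lower, where 18.2% of all genes were higher and 38.5% lower (56.7% in all). A lack of overlap between the fractions was thus common in the table. The scaling sets the zero of this comparison: the median of all genes lay at -0.08 in Smarca4+/- and -0.19 in Smarca4+/+ cells on the log2 scale with TMM, at 0.04 and -0.00404 with total counts, and at 0.17 and 0.14 with libraries scaled to B cell markers. The genes called higher and lower numbered 282 and 195 in Smarca4+/- cells and 484 and 489 in Smarca4+/+ cells with TMM, against 345 and 57, and 635 and 211, with B cell marker scaling.

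**Figure D2:**
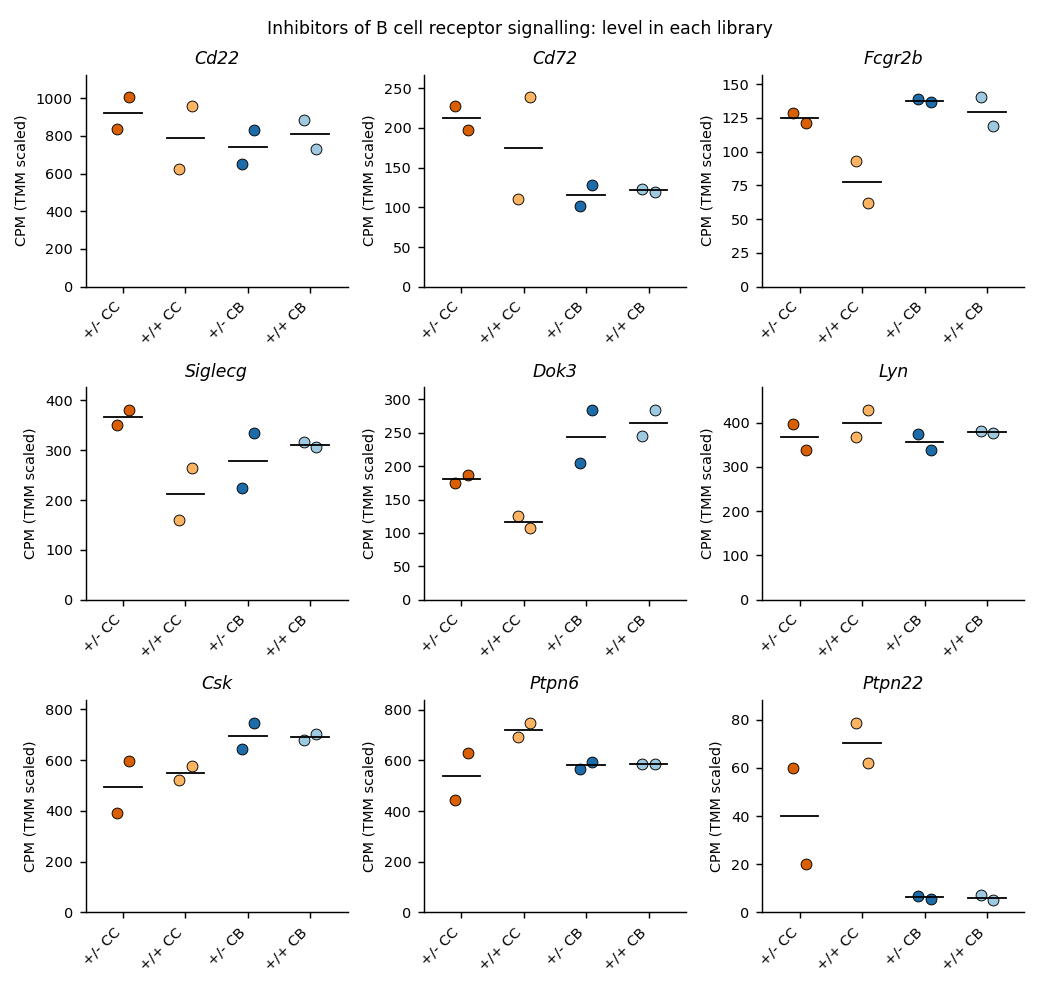
CPM (TMM scaled, linear axes from 0) of each of the 9 genes in the 8 libraries, with points for libraries and lines for the mean of each group. Ptpn22 lies at 20.2 to 78.6 CPM in CC and at 4.95 to 7.16 CPM in CB, and Dok3 is lower in both Smarca4+/+ CC libraries than in every other library.

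Among the receptors, Cd22 is a sialic acid binding lectin of B cells that lies close to the B cell receptor in the membrane (ENSMUSG00000030577.14, mm10 chromosome 7, 30865402 to 30880342, minus strand). It had 837 and 1005 CPM in Smarca4+/- CC, 622 and 956 in Smarca4+/+ CC, 649 and 829 in Smarca4+/- CB, and 885 and 733 in Smarca4+/+ CB. In Smarca4+/- mice both CC libraries lay just above both CB libraries, and in Smarca4+/+ mice the fractions overlapped. The log2 fold change of CC over CB was 0.32 (SE 0.223, adjusted p = 0.47, edgeR) in Smarca4+/- and -0.03 (SE 0.224, adjusted p = 0.941) in Smarca4+/+ cells, and the sign of the second turned under other scalings (0.09 with RLE).

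Siglecg is the related lectin best known from B-1 cells (ENSMUSG00000030468.12, chromosome 7, 43408204 to 43418358, plus strand). It had 351 and 381 CPM in Smarca4+/- CC, 161 and 265 in Smarca4+/+ CC, 224.5 and 334 in Smarca4+/- CB, and 317 and 306 in Smarca4+/+ CB. The Smarca4+/- CC libraries were the highest of the 8 and the Smarca4+/+ CC libraries held the lowest value. The fractions did not overlap in either genotype and stood in opposite orders, with CC over CB at 0.39 (SE 0.252, adjusted p = 0.436, edgeR) in Smarca4+/- cells and -0.55 (SE 0.26, adjusted p = 0.234) in Smarca4+/+ cells.

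Fcgr2b (ENSMUSG00000026656.15, chromosome 1, 170958617 to 170976547, minus strand) had 128 and 121 CPM in Smarca4+/- CC, 92.9 and 62.1 in Smarca4+/+ CC, 139 and 137 in Smarca4+/- CB, and 140.2 and 119 in Smarca4+/+ CB. Both Smarca4+/+ CC libraries, with 52 and 38 counts, lay below all others. CC over CB was -0.14 (SE 0.244, adjusted p = 0.8, edgeR) in Smarca4+/- cells and -0.75 (SE 0.26, adjusted p = 0.11) in Smarca4+/+ cells. Without Smarca4+/+ CC replicate 1 the second was -1.06 with an adjusted p of 0.0452, and DESeq2 also called it (adjusted p = 0.0385). Macrophages express this gene too, and its activating relative Fcgr3, which macrophages express and which shares sequence with it, had 50.7 and 18.97 CPM in Smarca4+/- CC, 3.57 and 19.6 in Smarca4+/+ CC, and 0.406 to 1.53 in CB. The part of macrophages or of shared reads in the Fcgr2b values was not tested.

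Cd72, a C-type lectin receptor of B cells (ENSMUSG00000028459.11, chromosome 4, 43446462 to 43454628, minus strand), had 228 and 198 CPM in Smarca4+/- CC, 111 and 239 in Smarca4+/+ CC, 102 and 129 in Smarca4+/- CB, and 123 and 119.9 in Smarca4+/+ CB. Both Smarca4+/- CC libraries and 1 of the Smarca4+/+ CC libraries stood well above all CB libraries. CC over CB was 0.88 (SE 0.303, adjusted p = 0.149, edgeR) in Smarca4+/- cells, which passed with DESeq2 (adjusted p = 0.0384) and with no filter on low counts (0.0374). In Smarca4+/+ cells it was 0.53 (SE 0.309, adjusted p = 0.328), and 1 library decided it: 0.97 (adjusted p = 0.0356) without CC replicate 1 and -0.13 (0.761) without CC replicate 2. The exons of Tesk1, a kinase gene on the other strand, cover 41.58% of the Cd72 exon length, and the counting strand is not given in the sources used here, so some reads may belong to Tesk1. Tesk1 had 21.4 and 60.5 CPM in Smarca4+/- CC, 35.7 and 52.3 in Smarca4+/+ CC, and 48.5 to 57.5 in CB.

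Dok3 is an adaptor that Lyn phosphorylates and that dampens calcium and JNK signalling below the receptor (ENSMUSG00000035711.5, chromosome 13, 55523231 to 55529296, minus strand). It had 175 and 186 CPM in Smarca4+/- CC, 125 and 108 in Smarca4+/+ CC, 204 and 284 in Smarca4+/- CB, and 245.5 and 284 in Smarca4+/+ CB. Every CC library lay below every CB library, and the Smarca4+/+ CC libraries lay lowest. In Smarca4+/- cells CC over CB was -0.44 (SE 0.223, adjusted p = 0.332, edgeR), which did not pass. In Smarca4+/+ cells Dok3 fell by 1.19 on the log2 scale (SE 0.235, adjusted p = 0.0133), averaging 116.5 ± 12.2 CPM in CC and 265 ± 27 CPM in CB (SD, n = 2 each). The call was lost with scaling to B cell markers (-0.85, adjusted p = 0.0665, edgeR). It was also lost without Smarca4+/+ CB replicate 1 (-1.31) or 2 (-1.07), where calls over the whole table fell as well. The call held without either Smarca4+/+ CC library.

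Of the kinases, Lyn (ENSMUSG00000042228.14, chromosome 4, 3678115 to 3813122, plus strand) differed little between the fractions. It had 398 and 339 CPM in Smarca4+/- CC, 368 and 428 in Smarca4+/+ CC, 374 and 338 in Smarca4+/- CB, and 381.5 and 376 in Smarca4+/+ CB. The fractions overlapped in both genotypes. CC over CB was 0.05 (95% interval, unadjusted, -0.341 to 0.443) in Smarca4+/- and 0.07 (-0.322 to 0.467) in Smarca4+/+ cells. A change within these bounds is thus not excluded by the data. The bounds are not the smallest change that the adjusted test could call.

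Csk (ENSMUSG00000032312.7, chromosome 9, 57626646 to 57653631, minus strand) had 393 and 597.5 CPM in Smarca4+/- CC, 520 and 575 in Smarca4+/+ CC, 644 and 746 in Smarca4+/- CB, and 680.3 and 705 in Smarca4+/+ CB. All CC libraries lay below all CB libraries. CC over CB was -0.49 (SE 0.205, adjusted p = 0.235, edgeR) in Smarca4+/- cells and -0.34 (SE 0.206, adjusted p = 0.347) in Smarca4+/+ cells, neither past the threshold. Without Smarca4+/- CC replicate 2 the first was -0.82 with an adjusted p of 0.0293. The CPM ratio of Csk to Lyn, which no library scaling can move, was 0.987 and 1.76 in Smarca4+/- CC, 1.41 and 1.34 in Smarca4+/+ CC, 1.72 and 2.21 in Smarca4+/- CB, and 1.78 and 1.87 in Smarca4+/+ CB. It was lower in CC than in CB without overlap in Smarca4+/+ cells, and the fractions overlapped in Smarca4+/- cells.

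Of the phosphatases, Ptpn6 (ENSMUSG00000004266.15, chromosome 6, 124720707 to 124738714, minus strand) had 445 and 628 CPM in Smarca4+/- CC, 691.5 and 747 in Smarca4+/+ CC, 566.5 and 594 in Smarca4+/- CB, and 584 and 586 in Smarca4+/+ CB. The Smarca4+/+ CC libraries were the highest of the 8, and the Smarca4+/- CC libraries spanned the whole CB range. CC over CB was -0.11 (SE 0.186, adjusted p = 0.796, edgeR) in Smarca4+/- and 0.30 (SE 0.186, adjusted p = 0.358) in Smarca4+/+ cells, and the sign of the first turned under other scalings (0.00122 with RLE).

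Ptpn22 (ENSMUSG00000027843.13, chromosome 3, 103859795 to 103912247, plus strand) was the scarcest of the 9 genes in CB. It had 60.1 and 20.2 CPM in Smarca4+/- CC, 78.6 and 62.1 in Smarca4+/+ CC, 6.96 and 5.48 in Smarca4+/- CB, and 7.16 and 4.95 in Smarca4+/+ CB. Every CC library lay well above every CB library, on 17 to 45 counts in CC and 106 to 141 counts in CB. The pooled Smarca4+/+ CC level was 70 CPM with a 95% Poisson interval of 55.7 to 86.9 and the pooled Smarca4+/- CC level 38.9 CPM with one of 29.9 to 49.9, intervals that cover counting error only. Ptpn22 rose by 2.68 on the log2 scale in Smarca4+/- cells (SE 0.547, adjusted p = 0.0231, edgeR) and by 3.54 in Smarca4+/+ cells (SE 0.553, adjusted p = 0.00411). In Smarca4+/- cells the call was lost in a fit of the 4 libraries compared (adjusted p = 0.065, edgeR). It was also lost without CB replicate 1, CB replicate 2 or CC replicate 1, the last of which lowered the value to 1.70. In Smarca4+/+ cells it was lost without either CB replicate, at values of 3.30 and above. Calls over the whole table fell in each of these fits too, so the losses are not particular to Ptpn22. T cells express Ptpn22, and the 16 T cell markers moved with it, summing to 438 and 234 CPM in Smarca4+/- CC, 756 and 781 in Smarca4+/+ CC, 116 and 114 in Smarca4+/- CB, and 143 and 139 in Smarca4+/+ CB. Cd3e, a defining T cell gene, had 34.7 and 7.11 CPM in Smarca4+/- CC, 50.03 and 98.1 in Smarca4+/+ CC, 0.158 and 0.576 in Smarca4+/- CB, and 0 counts in both Smarca4+/+ CB libraries. Cd3d (10.7 and 4.74 against 25.02 and 3.27 CPM) and Cd3g (18.7 and 2.37 against 42.9 and 9.81 CPM) overlapped between Smarca4+/- and Smarca4+/+ CC. The macrophage and monocyte markers also rose, summing to 4320 and 1852 CPM in Smarca4+/- CC and 3558 and 3377 CPM in Smarca4+/+ CC, which overlapped. The part of T cells and macrophages in the Ptpn22 values was not tested.

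**Figure D3:**
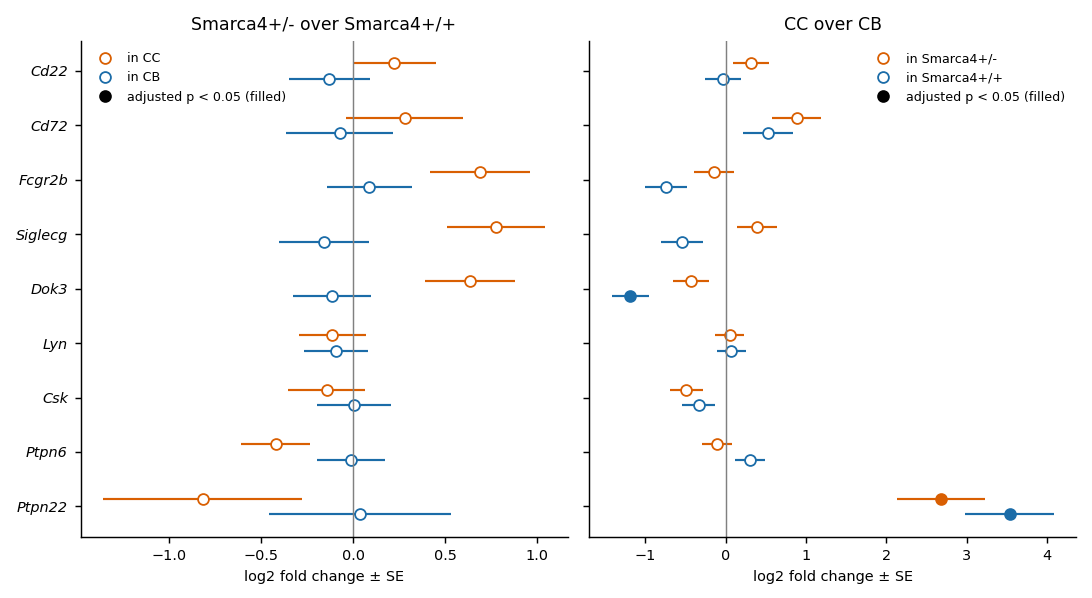
Log2 fold changes with their SE (edgeR) of the 9 genes, on the left Smarca4+/- over Smarca4+/+ in CC (orange) and CB (blue) and on the right CC over CB in Smarca4+/- (orange) and Smarca4+/+ (blue). Filled points passed an adjusted p of 0.05: Ptpn22 in both genotypes and Dok3 in Smarca4+/+ cells.

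Between the genotypes in CC, 0 of the 9 inhibitors passed the edgeR test, and 4 of the 9 had an unadjusted p under 0.05. Over the 12997 genes, 0.0231% passed and 15.2% had an unadjusted p under 0.05. With DESeq2 0 of the 9 genes and 829 genes in all passed. Siglecg, Fcgr2b and Dok3 were higher in both Smarca4+/- CC libraries than in both Smarca4+/+ CC libraries, and Ptpn6 and Ptpn22 were lower in both. Of all genes, 18.1% were higher and 14.4% lower without overlap in this way, 32.6% in all. The median log2 fold change was 0.22 over the 9 genes and 0.03 over all genes tested.

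Siglecg averaged 366 ± 20.8 CPM in Smarca4+/- CC and 213 ± 73.5 CPM in Smarca4+/+ CC (SD, n = 2 each), at 0.78 on the log2 scale (SE 0.267, unadjusted p = 0.0137, adjusted p = 0.217, edgeR). Its CPM ratio to Cd22 in the same library was 0.419 and 0.379 in Smarca4+/- CC, 0.259 and 0.277 in Smarca4+/+ CC, 0.346 and 0.403 in Smarca4+/- CB, and 0.358 and 0.418 in Smarca4+/+ CB. Relative to its fellow lectin Siglecg was thus lowest in the Smarca4+/+ CC libraries, and the other 3 groups overlapped. Leaving out a Smarca4+/+ CC library moved the fold change to 0.47 (without replicate 1) or 1.19 (without replicate 2).

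Fcgr2b averaged 125 ± 5.13 CPM in Smarca4+/- CC and 77.5 ± 21.8 CPM in Smarca4+/+ CC, at 0.69 on the log2 scale (SE 0.272, adjusted p = 0.273, edgeR). Dok3 averaged 180.5 ± 7.93 CPM in Smarca4+/- CC and 116.5 ± 12.2 CPM in Smarca4+/+ CC, at 0.63 (SE 0.244, adjusted p = 0.26). The Smarca4+/- CC libraries lay within the CB range for Fcgr2b, and between the Smarca4+/+ CC and the CB libraries for Dok3. Marker sums differed in the same libraries. The dark zone list summed to 2405 and 3434 CPM in Smarca4+/- CC and 1760 and 1695 CPM in Smarca4+/+ CC. One marker, Mki67, held most of these sums, with 1777 and 2574 CPM in Smarca4+/- CC and 1129 and 1027 CPM in Smarca4+/+ CC. The sums thus mainly follow this gene. Over the dark zone list, 8 of 10 markers had a positive and 2 a negative log2 fold change between the genotypes in CC, with a median of 0.65. The neutrophil list summed to 417 and 97.2 CPM in Smarca4+/- CC and 17.9 and 0 CPM in Smarca4+/+ CC. Of the dark zone markers 4 of 10 were higher and 1 lower without overlap. Of the 10 neutrophil markers 5 were too low to be tested, and the 5 tested were higher without overlap. Among these 5, S100a8 and S100a9 had 0 counts in Smarca4+/+ CC and passed the filter only with their Smarca4+/- CC counts. A higher level there was thus a condition of their being tested. In edgeR 0 of either list passed, with 3 of each at an unadjusted p under 0.05. Their part in the values of Siglecg, Fcgr2b and Dok3 was not tested. Cd22 (0.22, SE 0.226) and Cd72 (0.28, SE 0.318) overlapped between the genotypes, and both signs turned without Smarca4+/+ CC replicate 1 (-0.05 and -0.16).

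Ptpn6 averaged 536.5 ± 130 CPM in Smarca4+/- CC and 719 ± 39.3 CPM in Smarca4+/+ CC, at -0.42 on the log2 scale (SE 0.19, adjusted p = 0.319, edgeR). The value was -0.20 without Smarca4+/- CC replicate 1 and -0.69 without replicate 2. Ptpn22 averaged 40.1 ± 28.2 CPM in Smarca4+/- CC and 70.4 ± 11.7 CPM in Smarca4+/+ CC, at -0.82 (SE 0.543, adjusted p = 0.471). Without Smarca4+/- CC replicate 1 that value was -1.80 and without replicate 2 it was -0.23. The summed T cell markers were likewise lower in both Smarca4+/- CC libraries than in both Smarca4+/+ CC libraries, at 338 and 67.6 against 595 and 577 CPM without the marker most abundant in CB, and their part in the Ptpn22 difference was not tested. The kinases Lyn (-0.11, SE 0.184) and Csk (-0.14, SE 0.21) overlapped between the genotypes.

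In CB, the deep libraries, the genotypes were close for all 9 genes. The log2 fold changes of Smarca4+/- over Smarca4+/+ ran from -0.16 for Siglecg to 0.09 for Fcgr2b, and each had an adjusted p of 1 with edgeR. Of the 9 genes 0 passed with DESeq2 and 0 had an unadjusted p under 0.05, against 84 of 12997 genes (0.646%), and 0% of the table passed with edgeR, while DESeq2 called 3 genes. Only Lyn did not overlap, with 374 and 338 CPM in Smarca4+/- CB and 381.5 and 376 CPM in Smarca4+/+ CB, and 15.8% of all genes were lower without overlap. The narrowest of the 95% intervals was that of Lyn, at -0.474 to 0.29, and the widest that of Ptpn22, at -1.05 to 1.13, and each included 0.

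Whether the genotype effect differed between CC and CB was tested as an interaction. Of the 9 genes 0 passed with edgeR or DESeq2 and 2 had an unadjusted p under 0.05. Of the 12997 genes 0% passed with edgeR, with 9.19% at an unadjusted p under 0.05 and 323 genes called with DESeq2. Siglecg (0.94, SE 0.363, unadjusted p = 0.0251, adjusted p = 0.493, edgeR) and Dok3 (0.75, SE 0.323, unadjusted p = 0.0402, adjusted p = 0.53, edgeR) had the smallest p-values of the 9. The interaction was positive for all 4 receptors, at 0.35 for Cd22, 0.35 for Cd72, 0.60 for Fcgr2b and 0.94 for Siglecg, and the 95% interval, unadjusted, included 0 for the first 3 of them and ran from 0.14 to 1.73 for Siglecg. It was negative for Ptpn6 (-0.41, SE 0.263) and Ptpn22 (-0.86, SE 0.735). The median was 0.35 over the 9 genes and 0.10 over all 12997.

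Levels of different genes can be compared only per length, as CPM per kilobase of exon. In Smarca4+/+ CB the order was Ptpn6 at 209, Csk at 185, Cd22 at 160, Dok3 at 108, Lyn at 93, Siglecg at 64.8, Cd72 at 35.5, Fcgr2b at 22.4 and Ptpn22 at 0.894 CPM per kilobase. In this group the 2 libraries of each gene did not overlap with those of its neighbours in the order, and in Smarca4+/- CB the same order held with an overlap of Dok3 and Lyn. The phosphatase Ptpn6 was thus the most abundant and the phosphatase Ptpn22 the scarcest of the 9 transcripts in CB.

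In CC the middle of the order shifted. In Smarca4+/- CC it ran Ptpn6 at 191, Cd22 at 183, Csk at 132, Lyn at 90.5, Siglecg at 76.1, Dok3 at 73.4, Cd72 at 62.3, Fcgr2b at 21.5 and Ptpn22 at 5.92 CPM per kilobase, where Ptpn6 overlapped with Cd22 and Csk, and Siglecg with Dok3. In Smarca4+/+ CC it ran Ptpn6 at 257, Cd22 at 157, Csk at 147, Lyn at 97.8, Cd72 at 51.1, Dok3 at 47.4, Siglecg at 44.3, Fcgr2b at 13.4 and Ptpn22 at 10.4 CPM per kilobase. There Cd22 and Csk overlapped, as did Cd72, Dok3 and Siglecg, and Fcgr2b and Ptpn22. Dok3 thus stood above Lyn in CB and below it in CC in both genotypes, apart from the overlap in Smarca4+/- CB.

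**Figure D4:**
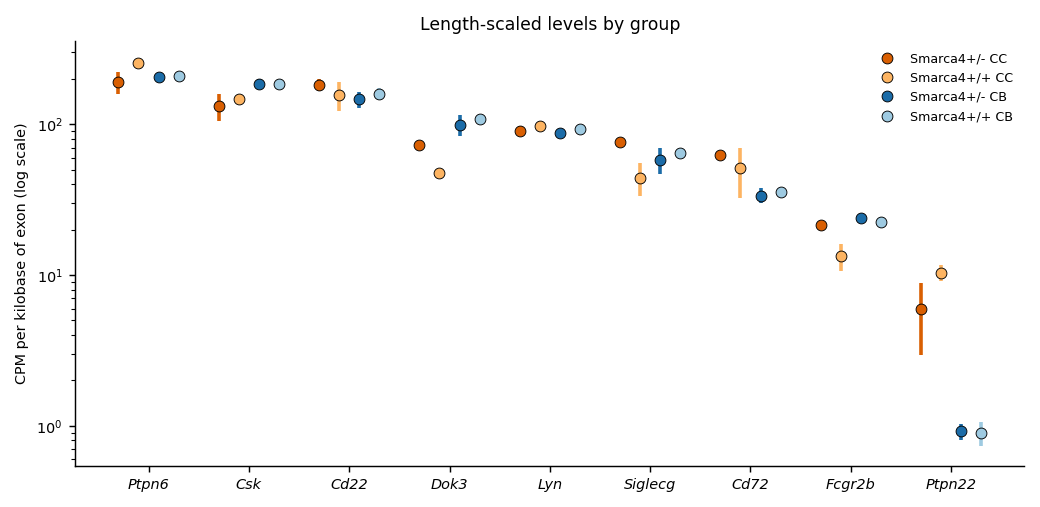
CPM per kilobase of exon (log scale) of the 9 genes in each group, ordered by their level in Smarca4+/+ CB, with points for the mean of 2 libraries and lines from the lower to the higher library. The levels run from 257 for Ptpn6 in Smarca4+/+ CC to 0.894 for Ptpn22 in Smarca4+/+ CB.

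Summed over the 9 genes, the level was 3015 and 3476 CPM in Smarca4+/- CC, 2770 and 3443 in Smarca4+/+ CC, 2910 and 3396 in Smarca4+/- CB, and 3363 and 3233 in Smarca4+/+ CB. The groups overlapped. The 4 receptors together had 1545 and 1705 CPM in Smarca4+/- CC, 986 and 1522 in Smarca4+/+ CC, 1114 and 1428 in Smarca4+/- CB, and 1465 and 1278 in Smarca4+/+ CB. Both Smarca4+/- CC libraries lay above the other 6, 1 of them only narrowly (1545 against 1522). Cd22, which overlapped between the genotypes, held most of each receptor sum. The 2 kinases together had 790.5 to 1004 CPM in CC, below every CB library (1017 to 1084). The 2 phosphatases together were highest in Smarca4+/+ CC, at 770 and 809 CPM, against 505 to 648.5 CPM in the other groups.

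The other inhibitors of the pathway were described from a list of 34 genes, of which 32 were tested (Sla2 and Spry1 were too low). In CC relative to CB, 5 rose and 0 fell in Smarca4+/- cells, where 2.17% of all genes rose and 1.50% fell. In Smarca4+/+ cells 7 rose and 0 fell, where 3.72% of all genes rose and 3.76% fell. Ubash3a, counted in both genotypes, and Fcrl5, counted in Smarca4+/+ cells, passed the filter on low counts only with CC counts. The direction of these genes was thus not open. The median log2 fold change was 0.35 in Smarca4+/- and 0.54 in Smarca4+/+ cells, beside -0.08 and -0.19 over all genes. Among enzymes and adaptors of B cells and other lymphocytes, Dgka, a kinase that consumes diacylglycerol, had 85.5 and 62.8 CPM in Smarca4+/- CC, 143 and 116 in Smarca4+/+ CC, 36.6 and 37.6 in Smarca4+/- CB, and 43.1 and 40.2 in Smarca4+/+ CB, and rose in Smarca4+/+ cells by 1.63 (SE 0.278, adjusted p = 0.00631, edgeR). Sla, an adaptor that promotes receptor degradation, rose there by 1.32 (SE 0.293, adjusted p = 0.0222), with 72.1 and 48.6 CPM in Smarca4+/- CC, 111 and 109.5 in Smarca4+/+ CC, 39.96 and 38.5 in Smarca4+/- CB, and 48.7 and 39.9 in Smarca4+/+ CB. For Dgka all CC libraries lay above all CB libraries, and for Sla so did all but Smarca4+/- CC replicate 2, which lay level with the highest CB library. Ubash3b, the phosphatase Sts-1, had 10.7 and 9.49 CPM in Smarca4+/- CC, 32.2 and 58.9 in Smarca4+/+ CC, 7.91 and 7.92 in Smarca4+/- CB, and 10.1 and 10.2 in Smarca4+/+ CB, and rose in Smarca4+/+ cells by 2.17 (SE 0.524, adjusted p = 0.0305).

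Dgka, Sla and Ubash3b are not particular to B cells, and several of the other rises were in genes that T cells or myeloid cells also express. Markers of T cells and of macrophages and monocytes rose in the same libraries. Ubash3a, a relative of Ubash3b best known from T cells, had 5.34 and 9.49 CPM in Smarca4+/- CC, 35.7 and 42.5 in Smarca4+/+ CC, 0 and 0.288 in Smarca4+/- CB, and 0 counts in both Smarca4+/+ CB libraries. It was at least 538-fold higher in Smarca4+/+ CC than in Smarca4+/+ CB, against a floor of 3 counts over that group (adjusted p = 0.003, edgeR). Ubash3a passed the filter on low counts only through CC libraries, so a higher level in CC was a condition of its being tested. Cd5, a receptor of T cells and B-1 cells, rose by 4.01 (adjusted p = 0.0405) and Cd300a, an inhibitory receptor also of myeloid cells, by 3.799 (adjusted p = 0.0139) in Smarca4+/+ cells. Fcrl5, an Fc receptor like protein of B cells, rose there by 5.64 (adjusted p = 0.0475), with 10.7 and 65.4 CPM in Smarca4+/+ CC and 1.52 and 0 CPM in Smarca4+/+ CB. Fcrl5 too passed the filter only with CC counts, and 40 of its 46 counts in Smarca4+/+ CC came from replicate 2. In Smarca4+/- cells Ubash3a rose by 5.55 (adjusted p = 0.037, edgeR), where CB held 6 counts of it in 1 library and 0 in the other. There Cd300a rose by 3.37, Pirb by 3.97 and Lair1 by 4.12, receptors with inhibitory motifs that myeloid cells share, and the adhesion receptor Pecam1 by 1.28 (adjusted p = 0.0343, 0.0183, 0.0377 and 0.0353 in that order, edgeR). The part of T cells and myeloid cells in any of these rises, those of Dgka, Sla and Ubash3b included, was not tested. In fits of only the 4 libraries compared, the calls of Ubash3a (adjusted p = 0.0894), Cd300a (0.0585) and Pecam1 (0.0676) in Smarca4+/- cells were lost, and so were those of Cd300a (0.0727), Sla (0.0582), Ubash3b (0.0843) and Cd5 (0.0838) in Smarca4+/+ cells. With CB libraries thinned to the CC depth, those of Ubash3a (0.148) and Lair1 (0.0599) in Smarca4+/- cells and of Cd5 (0.345) in Smarca4+/+ cells were lost. The number called in Smarca4+/+ cells, 7, became 2 in the fit of only the 4 libraries compared and 4 with the replicate block. Fcrl5 was not followed singly under the alternatives, so its call is not known to hold in any of them. Fewer were called in Smarca4+/+ cells without either CB replicate, and in Smarca4+/- cells without either CB replicate or CC replicate 1. More were called in Smarca4+/- cells without CC replicate 2. Calls over the whole table moved the same way in these fits.

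Of 37 activators of the pathway, all tested, 3 rose and 0 fell in Smarca4+/- CC, where 2.17% of all genes rose and 1.50% fell. In Smarca4+/+ CC 4 rose and 1 fell, where 3.72% of all genes rose and 3.76% fell. The medians of the activators were -0.19 in Smarca4+/- and 0.03 in Smarca4+/+ cells. Cr2 (CD21), the complement receptor that acts as a coreceptor, had 745 and 436 CPM in Smarca4+/- CC, 718 and 642 in Smarca4+/+ CC, 183 and 207 in Smarca4+/- CB, and 239 and 191 in Smarca4+/+ CB. It rose by 1.60 (SE 0.247, adjusted p = 0.00666, edgeR) in Smarca4+/- and by 1.66 (SE 0.248, adjusted p = 0.00328) in Smarca4+/+ cells, with no overlap in either. The Src family kinase Fgr, which myeloid cells also express, rose by 1.56 in Smarca4+/- cells (adjusted p = 0.0453, edgeR) and by 1.54 in Smarca4+/+ cells (adjusted p = 0.032), calls lost in fits of only the 4 libraries compared (adjusted p = 0.085 in Smarca4+/- and 0.0676 in Smarca4+/+ cells), the first also with thinned CB libraries (0.0977). It had 82.8 and 41.5 CPM in Smarca4+/- CC, 82.2 and 70.3 in Smarca4+/+ CC, 20.2 and 21.9 in Smarca4+/- CB, and 28.7 and 23.7 in Smarca4+/+ CB, so every CC library lay above every CB library. Themis2, a signalling scaffold, rose by 1.45 in Smarca4+/+ cells (adjusted p = 0.0117, edgeR). Lyn, the relative of Fgr among the 9 genes, stood at 0.05 in Smarca4+/- and 0.07 in Smarca4+/+ cells. Fewer activators were called in Smarca4+/+ cells without either CB replicate, and in Smarca4+/- cells without either CB replicate or CC replicate 1. More were called in Smarca4+/- cells without CC replicate 2. Here too calls over the whole table moved the same way.

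Between the genotypes 0 genes of either list passed in CC or in CB, nor in the interaction, with edgeR. In CC 7 of the 32 other inhibitors and 5 of the 37 activators had an unadjusted p under 0.05, beside 15.2% of all genes, and DESeq2 called 4 and 2, beside 829 genes in all. In CB 0 genes of either list had an unadjusted p under 0.05 or were called with DESeq2, and in the interaction 3 other inhibitors and 0 activators had such a p, with 2 and 0 called with DESeq2. The smallest p-values in CC were those of Ubash3b (-2.18, SE 0.596, adjusted p = 0.162, edgeR) and Rasa1 (-1.004, SE 0.281, adjusted p = 0.164), a Ras GTPase activating protein with 61.4 and 48.6 CPM in Smarca4+/- CC and 109 and 111 CPM in Smarca4+/+ CC. Among the activators they were those of Sos1, a Ras exchange factor (-1.02, SE 0.351, adjusted p = 0.219), and Dapp1, an adaptor that binds PI3K lipids (-0.98, SE 0.361, adjusted p = 0.242). The medians in CC were -0.21 for the other inhibitors and -0.21 for the activators, beside 0.22 for the 9 genes and 0.03 for all genes. In CB the smallest p-values were those of Ubash3a and Pag1 (-0.37, SE 0.212) among the other inhibitors and of Vav3 (-2.17, SE 1.49) among the activators, each with an adjusted p of 1. In the interaction they were those of Ubash3a, Rasa1 (-1.08, SE 0.368), Sos1 (-0.97, SE 0.444) and Stim1 (-0.85, SE 0.396), with adjusted p of 0.437 to 0.549 in edgeR.

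**Figure D5:**
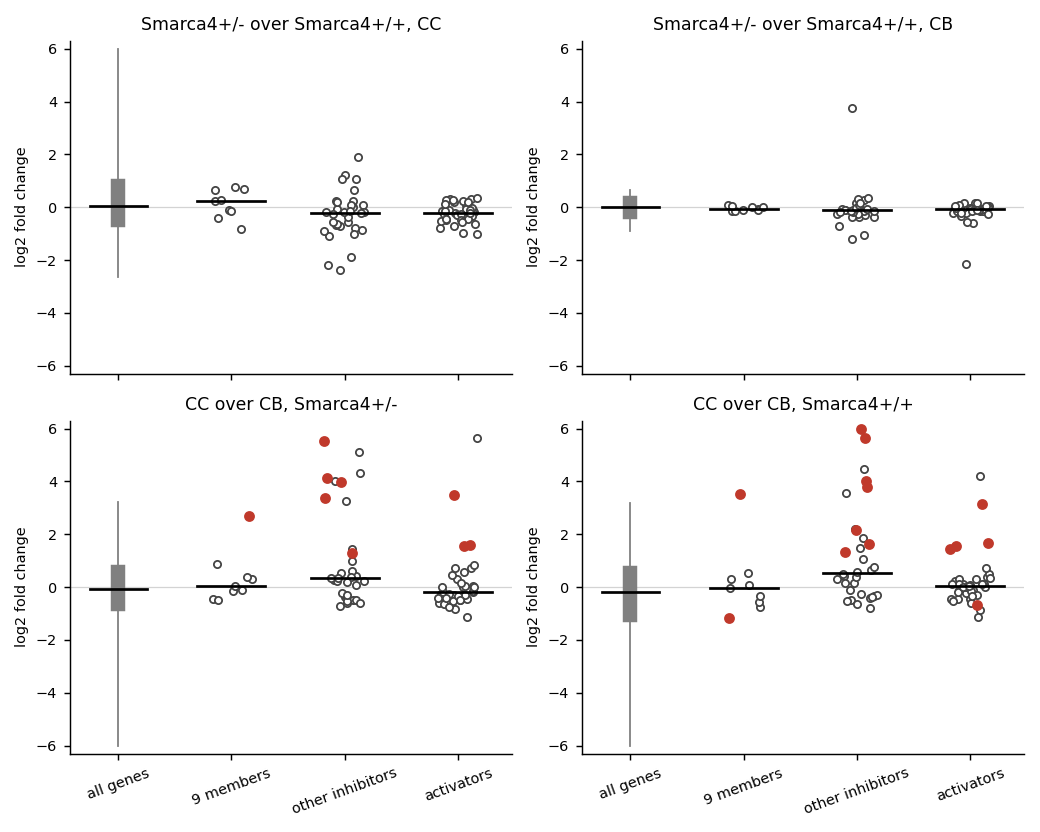
Log2 fold changes of the 9 genes, the 32 other inhibitors and the 37 activators in the 4 comparisons, with filled red points for an adjusted p under 0.05 (edgeR), black lines for medians, and for all genes tested a grey box from the 25th to the 75th percentile with a line from the 5th to the 95th percentile. Values beyond 6 in either direction are drawn at 6, and filled points appear in the comparisons of CC with CB and in neither comparison of the genotypes.

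The genes whose levels followed those of the 3 most abundant of the 9 genes most closely were found by the root mean square distance of log2 CPM, centred on each gene's mean, over the 8 libraries and 3608 genes of at least 50 CPM. The 5 nearest to Cd22 were Cdk17 (0.0974), Slc20a2, Sun2, H2-DMa and Dennd4b (0.131), where the median distance was 0.438. Those nearest to Csk were Myl6 (0.0801), Tmem189, Nrf1, Bag6 and Trir (0.0937), with a median of 0.38. Those nearest to Ptpn6 were Sec16a (0.0762), Pdha1, Clptm1, Ywhag and Sp110 (0.0965), with a median of 0.406. None of the 9 genes was eligible as a neighbour, and all distances share the same 8 libraries, in which the CC counts are low.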

How the data were processed

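The authors deposited a table of raw counts, whole reads per gene with no normalization, from total RNA libraries depleted of ribosomal RNA. Per the submitters' processing notes, FastQC, STAR, featureCounts (Subread), R 4.2.1 and mm10 were used. Versions of the aligner and counter, the strand setting and the handling of multi-mapping reads were not given in the sources used here. Another deposited unit is a length column in bases (unit other), used for CPM per kilobase. Of 55421 identifiers, 55154 had a symbol.

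Genes were tested with edgeR 4.0.16 under R 4.3.3: filterByExpr (minimum count 10, total 15), TMM and a quasi-likelihood fit of 4 group means to 8 libraries. The 5 contrasts were tested 2-sided and adjusted over 12997 genes. Each SE is the absolute log2 fold change divided by the square root of F, and 95% intervals use the degrees of freedom of the test (11.2). The scripts were tested on simulated data. Alternatives were DESeq2 1.42.0, other scalings and filters, a replicate block, fewer libraries, thinned CB libraries, no ribosomal RNA locus and, added after seeing the data, scaling to B cell markers. The genes and lists were chosen with earlier results of these data known. Beyond the 9 genes, up to 6 called genes a list, direction and contrast were named by p, or the 2 smallest p where none was called. Fcrl5, Tesk1, Fcgr3, Cd3e and the other marker genes given singly were added after their values were seen. Promoter windows are from RefSeq. Some genes that the rule names are not reported here.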

Additional observations from a re-analysis of the deposited data

How the results depend on the processing

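Of 684 recomputed log2 fold changes of the 9 genes (45 values, each under the alternatives that apply to it), 640 kept their direction, 44 turned, all of values that did not pass, and 16 crossed the threshold. For CC over CB, Cd22 in Smarca4+/+ cells turned to 0.0921 with RLE scaling and with DESeq2, 0.142 with total counts, 0.0619 with the stricter filter, 0.0935 with thinned CB libraries and 0.298 with B cell marker scaling. Ptpn6 in Smarca4+/- cells turned to 0.00122 with RLE scaling, 0.00285 with DESeq2, 0.0028 with total counts, 0.0434 with thinned CB libraries and 0.134 with B cell marker scaling, under which Fcgr2b turned to 0.129. Between genotypes in CB, Ptpn6 turned to 0.0572 with total counts and 0.0676 with B cell marker scaling, and Lyn to 0.0424 with thinned CB libraries. The cause of these turns was not tested.

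With single libraries left out, the genotype difference in CB ranged from -0.306 to 0.0355 for Cd22, -0.239 to 0.0829 for Cd72, -0.0058 to 0.199 for Fcgr2b, -0.462 to 0.101 for Siglecg, -0.363 to 0.102 for Dok3, -0.0954 to 0.108 for Csk, -0.036 to 0.0229 for Ptpn6 and -0.183 to 0.317 for Ptpn22. In CC it ranged from -0.0533 to 0.568 for Cd22, -0.164 to 0.943 for Cd72, -0.233 to 0.000646 for Lyn and -0.481 to 0.125 for Csk. CC over CB ranged from -0.0685 to 0.162 for Lyn and -0.384 to 0.115 for Ptpn6 in Smarca4+/- cells, and from -0.379 to 0.242 for Cd22, -0.133 to 0.974 for Cd72 and -0.0416 to 0.177 for Lyn in Smarca4+/+ cells. The interaction ranged from -0.0907 to 1.02 for Cd72, -0.141 to 0.0923 for Lyn and -0.486 to 0.12 for Csk. In such fits the lone library of a group is assumed to vary like the other groups.

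Of the 9 genes, the number called between the fractions in Smarca4+/- cells, 1, was 2 with no filter, with DESeq2 and with the replicate block within genotype, 0 with only the groups compared, and 0 to 2 without single libraries. In Smarca4+/+ cells the number called, 2, was 1 with B cell marker scaling and 0 (without either CB library) to 4 (without CC replicate 1). Over the whole table, the calls for CC over CB in Smarca4+/- cells, 477, became 1142 with no filter, 1487 with DESeq2, 308 with only the groups compared, 285 with thinned CB libraries and 0 to 945 without single libraries. In Smarca4+/+ cells 973 became 1651, 2148, 292, 609 and 170 to 1260 in the same order. Between genotypes in CC 3 calls became 323 with no filter, 829 with DESeq2 and 0 to 3 without single libraries. In CB 0 calls became 13 with no filter, 3 with DESeq2, 5 with only the groups compared and 0 to 1 without single libraries. In the interaction 0 became 46 with no filter, 323 with DESeq2, 1 with thinned CB libraries and 0 to 1 without single libraries.

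Whether equal replicate numbers pair the libraries could not be settled. Deviations of same-numbered libraries from their group means correlated at -0.0548 to 0.0597 over 9650 genes. Counting noise in the shallow CC libraries could hide pairing there. The ribosomal RNA locus took more of the counts in replicate 2 than in replicate 1 of every group. Its share was 18.8 and 26.7% in Smarca4+/- CC, 18.3 and 21.6% in Smarca4+/+ CC, 17.4 and 29.5% in Smarca4+/- CB, and 23 and 31.1% in Smarca4+/+ CB. The cause of this shift was not tested. With the replicate block the interaction called 1 gene, and 13 with the block within genotype, where Cd72 in Smarca4+/- cells passed (adjusted p = 0.0431, edgeR), as the 2 calls above count. With the plain block the sign of Csk between genotypes in CB turned to -0.00159. Depth bears most on the scarcest gene: Ptpn22 in CC rests on 17 to 45 counts a library.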
